A study of Mus musculus with 2 samples.

Results

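The splicing regulators described here are 10 genes of 5 RNA-binding protein families: the muscleblind-like genes Mbnl1, Mbnl2 and Mbnl3, the CUGBP and ELAV-like genes Celf1 and Celf2, the RNA-binding fox gene Rbfox2, the polypyrimidine tract binding genes Ptbp1 and Ptbp2, and the epithelial splicing regulators Esrp1 and Esrp2. They were taken by Ensembl gene identifier from 43346 annotated genes, together with their 113 transcripts of 103639 annotated transcripts, whatever their level. The tissue was mouse limb at embryonic day 14.5 (strain B6NCrl), sequenced as total RNA in 2 libraries of 1 group, each from 10 ng of RNA over 200 nt. No genotype, treatment or second stage exists, so levels and splice forms are described and no conditions are compared. The labels call the libraries biological replicates 1 and 2 and give each as 4 limbs of a pup with pooled sex. They share a donor identifier, a pup number and a pregnancy number, and differ in collection day. The SD (n = 2) therefore covers only the spread between these libraries. The adjusted p-values given below set these libraries against counting error alone and do not measure that spread.

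These families decide which exons of a pre-mRNA are kept in different tissues. PTB proteins bind pyrimidine-rich stretches and mostly repress exons used in neurons and muscle. MBNL proteins favour exon patterns of mature muscle, and CELF proteins often act on the same exons in the opposite sense. RBFOX proteins promote or repress an exon according to the side on which they bind, in muscle, heart and neurons. ESRP proteins set the exon pattern of epithelial cells, which in a limb bud form the surface ectoderm over muscle, cartilage and connective tissue.

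Replicate 1 held 34193161 expected counts and replicate 2 held 32879425, spike-ins included, and the 10 regulators held between 709 and 11941 expected counts each per library. Expected counts are reads shared out among transcripts by a model, and TPM (abundance with every library brought to one total) is the level per transcript length, so that levels of different genes can be set side by side. Marker genes of the limb's cell types were present. The summed level in replicate 1 and replicate 2 was 4993 and 4505 TPM for 7 limb mesenchyme markers, of which the collagen genes Col1a1 and Col3a1 were higher in replicate 1 and the other 5 higher in replicate 2, 2427 and 1648 TPM for 10 skeletal muscle markers, and 1428 and 1248 TPM for 10 epithelial markers. Neuronal markers summed to 28.6 and 32.5 TPM over 8 genes, with Neurod1 at 0 in both libraries. The sum of 8 red blood cell markers was 26946 and 18277 TPM. In bulk tissue, fewer cells of a type and less RNA per cell cannot be told apart.

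All 10 regulators were expressed, with mean levels between 203 TPM for Ptbp1 and 13.3 TPM for Mbnl3. Detection here means 1 TPM or more in both libraries. The median regulator level was 36.7 TPM, beside a median of 18.6 TPM over the 13191 detected protein-coding genes. Ptbp1 stood above 95.3% of those genes and Mbnl3 above 40.4%. The order of mean levels was Ptbp1, Mbnl1, Mbnl2, Celf2, Celf1, Rbfox2, Ptbp2, Esrp2, Esrp1 and Mbnl3. Of the 9 neighbouring pairs in that order, only Ptbp2 and Esrp2 had values that overlapped between the libraries. That rule leaves out the deposited credibility intervals. These overlapped for Celf1 and Rbfox2 in both libraries, for Esrp2 and Esrp1 in replicate 1, and for Mbnl2 and Celf2 in replicate 2. Rbfox2 had more expected counts than Celf1 (5359 and 5123, against 4135 and 4097), so their order rests on the length correction.

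**Figure D1:**
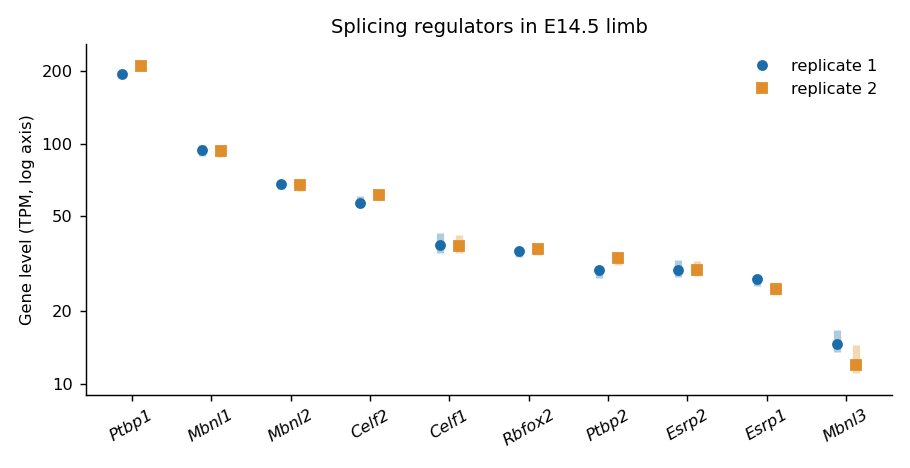
Gene level in TPM (log axis) of the 10 regulators in replicate 1 (blue circles) and replicate 2 (orange squares), ordered by mean; shaded bars span the deposited credibility interval of each library. Ptbp1 sits at 196 and 210 TPM and Mbnl3 at 14.6 and 11.9 TPM, with the other 8 between 24.8 and 93.8 TPM.

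MBNL1 and MBNL2 are zinc finger proteins whose sequestration on expanded repeats underlies human myotonic dystrophy, and MBNL3 is a related protein known from placenta and regenerating muscle. Mbnl1 (chr3:60472830-60629750, plus strand, GRCm38) had 93.8 TPM in replicate 1 and 93.4 TPM in replicate 2 (93.6 ± 0.276, SD, n = 2). Mbnl2 (chr14:120275669-120431697, plus strand) had 67.7 and 66.9 TPM (67.3 ± 0.516). Mbnl3 (chrX:51117269-51206532, minus strand) had 14.6 and 11.9 TPM (13.3 ± 1.92). Mbnl1 and Mbnl2 together made up most of the family: of a summed 174 ± 2.71 TPM, Mbnl1 held 53.8 ± 0.68%, Mbnl2 38.6 ± 0.3% and Mbnl3 7.62 ± 0.98%. The ratio of Mbnl1 to Mbnl2 was 0.47 and 0.48 on the log2(TPM + 0.1) scale in the libraries, or 1.39-fold on average. The ratio of Mbnl1 to Mbnl3 was 2.67 and 2.96 on that scale, or 7.04-fold. Without a correction for transcript length, Mbnl1 and Mbnl2 had nearly equal counts (log2 ratio -0.02), so their order by level rests on the length correction.

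Mbnl1 RNA was a mixture of forms. Of its 25 transcripts, 3 held 10% or more of the gene's TPM in both libraries. The coding transcript Mbnl1-214 led with 22.6 and 21.9% (22.2 ± 0.467%), followed by the processed transcript Mbnl1-212, which has no annotated coding sequence, with 16.7 and 21.9%, and by the coding transcript Mbnl1-201 with 15.0 and 14.8%. Protein-coding transcripts together held 63.2 ± 3.4% of Mbnl1 TPM, the lowest share among the 10 regulators, and retained-intron transcripts held 13.0 ± 1.0%, led by Mbnl1-225 with 8.39 ± 0.573%. The median protein-coding share was 92.6% over 7969 protein-coding genes with at least 2 transcripts and a mean of 5 TPM or more.

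The exons that differ between Mbnl1 transcripts include the 54 nt exon known to take part in nuclear localisation of the protein, which MBNL proteins themselves are known to repress. Inclusion is given as the share of TPM in transcripts that hold an exon, over these plus the transcripts whose intron spans it. The 54 nt exon was included in 45.3% of informative Mbnl1 TPM in replicate 1 and 40.3% in replicate 2 (42.8 ± 3.56%). Both forms were therefore present at similar levels: 31.2 and 29.3 TPM held the exon, and 37.7 and 43.4 TPM skipped it. Because Mbnl1-212 skips it without coding for protein, inclusion was 59.9% when only protein-coding and decay-tagged transcripts were counted. Mbnl2 has an annotated exon of the same length, and both sequences are shown because the exon is common to the major paralogs. The exons lie at chr3:60614683-60614736 and chr14:120395712-120395765, both on the plus strand of GRCm38. They share 46 of 54 positions (85.2%), and capitals mark the 8 positions that differ.
Mbnl1 54 nt exon: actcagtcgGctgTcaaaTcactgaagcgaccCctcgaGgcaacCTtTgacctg
Mbnl2 54 nt exon: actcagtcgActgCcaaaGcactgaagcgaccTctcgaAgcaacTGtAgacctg

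Farther along Mbnl1, the 36 nt exon at chr3:60621423-60621458 was included in 32.4 and 31.8% of informative TPM (32.1 ± 0.424%), and in 45.0% when only protein-coding and decay-tagged transcripts were counted. It is shown in capitals between the 15 coding bases on either side of it in Mbnl1-201, as an exon that keeps the reading frame when skipped.
Mbnl1 36 nt exon: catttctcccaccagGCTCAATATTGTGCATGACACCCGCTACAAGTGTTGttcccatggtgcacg
The 95 nt exon that follows was included in 91.9 and 91.0%. The 154 nt exon before it was included in 74.8 and 68.7% (71.7 ± 4.35%), with a shorter 49 nt form of the same exon in 4.08 and 4.58 TPM. All TPM that skipped the 154 nt exon came from the non-coding Mbnl1-212, which also holds a 63 nt exon of its own (26.2 and 31.4%). A 111 nt exon found in Mbnl1-210 alone was included in 12.6 and 9.00%.

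Mbnl2 had 2 transcripts in the tables. Mbnl2-202 held 68.1 and 73.7% (70.9 ± 3.95%) and Mbnl2-201 held 31.9 and 26.3%. Mbnl2-202 is 4498 nt long in the tables and 4534 nt in the later annotation, so its exon chain could not be assigned and no inclusion value is given for Mbnl2. Mbnl3 was spread over 3 coding transcripts. Mbnl3-201 held 38.1 ± 3.96%, Mbnl3-202 held 31.5 ± 1.9% and Mbnl3-203 held 25.9 ± 4.35%. Mbnl3-203 has 1026 coding nt and the other 2 have 738. The 247 nt exon that sets Mbnl3-203 apart from Mbnl3-202 was included in 43.1 and 46.9% of the TPM of that pair alone. Mbnl3-203 had 3.34 and 3.46 TPM, and Mbnl3-202 had 4.41 and 3.92 TPM. The leading Mbnl3-201 neither holds the exon nor has an intron that spans it, so it was not counted.

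CELF1 and CELF2 bind GU-rich RNA, in the nucleus as splicing regulators and in the cytoplasm as regulators of RNA decay. Celf2 (chr2:6539694-7509563, minus strand) had 56.4 and 61.3 TPM (58.9 ± 3.47) and Celf1 (chr2:90940382-91019497, plus strand) had 37.8 and 37.3 TPM (37.6 ± 0.347). The log2 ratio of Celf1 to Celf2 was -0.58 and -0.72 (-0.65 ± 0.098), so Celf2 was higher in both libraries. Celf1 and Celf2 held 37.6 ± 1.8% and 58.8 ± 1.2% of the summed level of the 6 family members. The other 4 were low: Celf4 had 2.34 and 2.57 TPM, Celf5 had 0.65 and 1.16 TPM, Celf3 had 0.12 and 0.19 TPM, and Celf6 had 0.03 and 0.19 TPM.

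Celf2 had a leading transcript and a long tail. Celf2-206 held 42.2 and 41.1% (41.6 ± 0.827%) of its 28 transcripts' TPM, Celf2-224 held 11.7 ± 0.113% and Celf2-226 held 10.1 ± 0.622%. An exon of 144 nt, which codes for part of the third RNA recognition motif, was included in 72.4 and 74.3% of informative TPM (73.3 ± 1.33%). The TPM that held it was 35.6 and 40.6, against 13.6 and 14.1 TPM that skipped it. Its length is a multiple of the codon, so its loss keeps the reading frame. The exon is printed in capitals between 15 neighbouring coding bases in Celf2-206, since it separates the leading transcript from Celf2-224 and Celf2-226 (chr2:6549832-6549975, minus strand).
Celf2 144 nt exon: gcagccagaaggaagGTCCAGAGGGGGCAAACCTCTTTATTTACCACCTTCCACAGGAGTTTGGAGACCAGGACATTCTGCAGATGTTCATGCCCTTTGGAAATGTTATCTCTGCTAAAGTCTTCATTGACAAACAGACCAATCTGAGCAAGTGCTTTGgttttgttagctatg
A 41 nt exon was held only by Celf2-228, a transcript annotated as a target of nonsense-mediated decay, with 3.17 TPM in replicate 1 and 5.26 TPM in replicate 2. Its inclusion was 6.44 and 9.62%. The credibility intervals of Celf2-228 did not overlap between the libraries (2.25 to 3.96 TPM and 4.05 to 6.30 TPM).

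Celf1 had no dominant transcript. Celf1-204 held 27.8 and 20.6%, Celf1-203 held 20.9 and 20.4%, and Celf1-201 held 13.9 and 18.1%. Other coding transcripts had unlike shares in the libraries. Celf1-205 held 0.01 and 18.3%, and Celf1-207 held 12.1 and 1.58%, each with overlapping credibility intervals. The processed transcript Celf1-213 of 478 nt held 17.1% in replicate 1 and 5.72% in replicate 2, with overlapping intervals (3.07 to 9.72 TPM and 0.01 to 4.93 TPM). A 53 nt non-coding exon near the start of the gene had an inclusion of 29.2 and 11.6%, and of 0.88% when only protein-coding and decay-tagged transcripts were counted, so its value rested on such short transcripts.

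RBFOX2 is the broadly expressed member of a family whose other members, RBFOX1 and RBFOX3, are best known from neurons and, for RBFOX1, striated muscle. Rbfox2 (chr15:77078990-77307004, minus strand) had 35.6 and 36.3 TPM (35.9 ± 0.502). Rbfox1 had 1.81 and 1.93 TPM and Rbfox3 had 0.34 and 0.20 TPM, so that Rbfox2 held 94.4 ± 0.11% of the family's 38.1 TPM. Rbfox2 exceeded Rbfox1 by 18.3-fold. Rbfox2-203 held 49.4 and 44.3% of the gene's TPM (46.8 ± 3.64%), Rbfox2-202 held 30.2 ± 0.311% and Rbfox2-201 held 19.4 ± 1.15%. All 4 Rbfox2 transcripts in the tables were protein-coding. Rbfox2-203 holds a 40 nt exon at chr15:77094451-77094490, by which it differs from Rbfox2-202 and Rbfox2-201 in the later annotation. It is shown in capitals between 15 coding bases on either side. Of the 4 transcripts, 3 have another length in the later annotation, so inclusion could not be read with the rule used for the other genes.
Rbfox2 40 nt exon: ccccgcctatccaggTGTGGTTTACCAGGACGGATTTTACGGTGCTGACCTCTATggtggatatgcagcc

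PTBP1 is the PTB protein of most dividing cells, and PTBP2 its neuronal paralog, whose RNA PTBP1 is known to send to decay by exon skipping. Ptbp1 (chr10:79854427-79864771, plus strand) had 196 and 210 TPM (203 ± 10.4). Ptbp2 (chr3:119718742-119784466, minus strand) had 29.6 and 33.5 TPM (31.6 ± 2.76). The log2 ratio of Ptbp1 to Ptbp2 was 2.72 and 2.65 (2.68 ± 0.052), or 6.42-fold. Ptbp3, the remaining paralog, had 39.8 and 41.4 TPM, a level above that of Ptbp2 in both libraries. Of the 275 ± 14.3 TPM of the family, Ptbp1 held 73.8 ± 0.057%, Ptbp3 14.8 ± 0.35% and Ptbp2 11.5 ± 0.41%.

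Ptbp1 was split almost evenly between forms with and without a 78 nt exon. Ptbp1-216, with the exon, held 43.2 and 45.5% of TPM (44.3 ± 1.63%). Ptbp1-202, without it, held 37.9 and 37.1% (37.5 ± 0.566%). Over all informative transcripts the exon was included in 46.2 and 50.3% (48.2 ± 2.89%), that is 85.6 and 98.0 TPM with it, against 99.7 and 96.9 TPM without it. The form without the exon was the higher one in replicate 1 and the lower one in replicate 2, so the libraries do not place one above the other. This exon, often numbered as the ninth, lies in the linker before the third RNA recognition motif, and its skipping is known to weaken repression by the protein. It is printed in capitals between coding bases of Ptbp1-216 because it sets the major Ptbp1 forms apart (chr10:79860117-79860194, plus strand).
Ptbp1 78 nt exon: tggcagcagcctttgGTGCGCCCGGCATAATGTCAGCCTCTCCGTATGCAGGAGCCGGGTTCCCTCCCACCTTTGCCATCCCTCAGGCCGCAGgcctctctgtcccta
A 34 nt exon, whose skipping is known to send Ptbp1 RNA itself to decay, was included in 97.4 and 96.8%. The decay-tagged Ptbp1-201 that skips it had 4.74 and 6.19 TPM, or 2.68 ± 0.368% of the gene. Decay removes such RNA, so its steady level does not measure how often the exon is skipped. Ptbp2 had 1 transcript in the tables, Ptbp2-201, where the later annotation lists 13, so its skipped forms could not be seen. The interval of Ptbp2-201 ran from 27.7 to 30.1 TPM in replicate 1 and from 31.3 to 33.97 TPM in replicate 2.

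ESRP1 and ESRP2 are paralogs expressed in epithelia. Esrp2 (chr8:106130319-106136974, minus strand) had 29.8 and 29.7 TPM (29.7 ± 0.0636), the smallest relative spread of the 10 regulators. Esrp1 (chr4:11331933-11386783, minus strand) had 27.2 and 24.8 TPM (26.0 ± 1.67). The log2 ratio of Esrp1 to Esrp2 was -0.13 and -0.26 (-0.19 ± 0.089). Esrp2 was thus slightly higher in both libraries, but without the length correction Esrp1 had more counts (log2 ratio 0.14). Epithelial markers were measured beside them: Perp, a desmosome protein, had 473 and 368 TPM, Krt14, a keratin of basal epidermis, had 386 and 374 TPM, and Sfn, an epithelial 14-3-3 protein, had 227 and 187 TPM. Rbm47, another epithelial splicing regulator, was lower than both Esrp genes with 3.52 and 4.61 TPM.

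Esrp1 was divided among 3 coding transcripts. Esrp1-204 held 35.4 ± 1.81%, Esrp1-201 held 31.4 ± 2.67% and Esrp1-203 held 29.0 ± 0.714%. They differ by a 151 nt exon near the end of the coding region, missing from Esrp1-204, with an inclusion of 63.1 and 58.4% (60.7 ± 3.27%). They differ also by a 110 nt exon (32.8 ± 0.738%), which does not lie wholly inside the coding region of the transcripts that hold it. In the annotation Esrp1-204 has 1812 coding nt, Esrp1-201 has 1977 and Esrp1-203 has 2043. Esrp2 was concentrated in Esrp2-201 with 76.8 and 81.0% (78.9 ± 2.98%). Retained-intron transcripts held 16.3 ± 0.75% of Esrp2 TPM, the largest share among the 10 regulators, led by Esrp2-205 with 5.91 ± 0.177%. The median retained-intron share over the 7969 genes was 1.05%, with an upper quartile of 9.28%.

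The leading transcript was the same in both libraries for all 10 genes. Of the 113 transcripts, 89 were above 0 TPM in at least 1 library and 23 held 10% or more of their gene in both. Among the 9 regulators with at least 2 transcripts in the tables, the leading transcript held a median of 41.6% (range 22.2 to 78.9%), beside 70.5% over the 7969 genes (quartiles 51.2 and 90.1%). Those genes had a median of 5 transcripts (quartiles 3 and 8), and the 9 regulators had from 2 (Mbnl2) to 28 (Celf2). The leading shares were not compared at like numbers of transcripts. The median protein-coding share of the 9 regulators was 93.4%. Of the 89 expressed transcripts, 2 (2.25%) had intervals that did not overlap between the libraries, Ptbp2-201 and Celf2-228. Over all expressed transcripts that share was 6.69%.

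**Figure D2:**
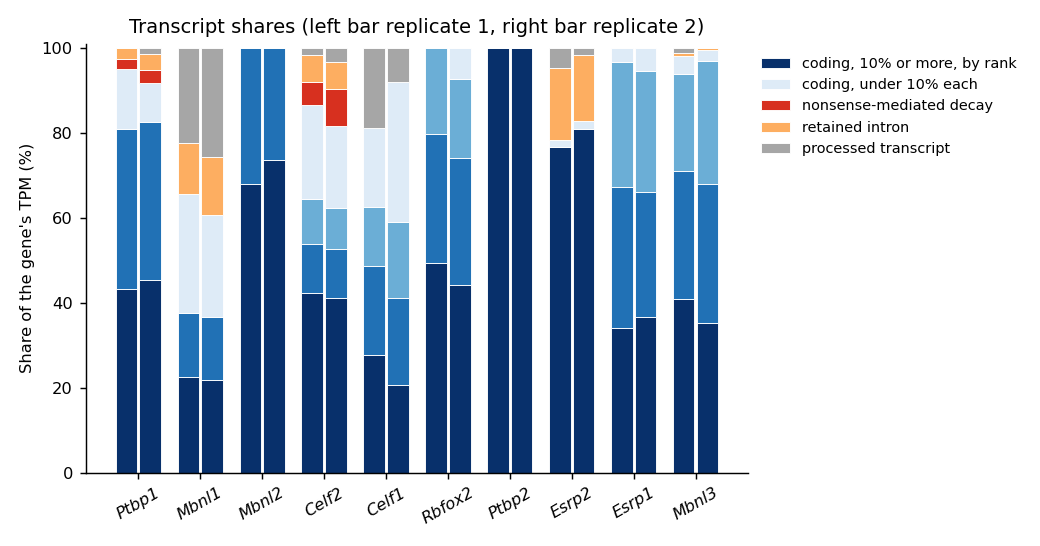
Share of each regulator's TPM (percent) by transcript, with replicate 1 on the left and replicate 2 on the right of each pair of stacked bars. Blue shades are coding transcripts of 10% or more by rank, pale blue is the remaining coding share, and other colours are decay-tagged, retained-intron and processed transcripts; Mbnl1 and Esrp2 have the largest non-coding shares, with 63.2% and 80.6% of their TPM coding.

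Exons known as targets of these families were read in the same way, from a list chosen for what is known of them. Pkm, which encodes pyruvate kinase, has a mutually exclusive pair of exons, and PTB proteins are known to repress the M1 exon. M1 made up 8.06 and 6.54% of Pkm (7.30 ± 1.07%), with 61.9 and 52.0 TPM of M1 and 707 and 744 TPM of M2. All M1 TPM came from Pkm-202, whose exon chain (2041 nt in the later annotation, 2432 nt in the tables) matched only after its outer ends were moved, so without it no M1 value can be given. The exons lie at chr9:59675029-59675195 and chr9:59675568-59675734 on the plus strand and have equal lengths. They share 103 positions (61.7%), and capitals mark the 64 that differ, which is what lets reads be assigned to the forms.
Pkm M1 exon: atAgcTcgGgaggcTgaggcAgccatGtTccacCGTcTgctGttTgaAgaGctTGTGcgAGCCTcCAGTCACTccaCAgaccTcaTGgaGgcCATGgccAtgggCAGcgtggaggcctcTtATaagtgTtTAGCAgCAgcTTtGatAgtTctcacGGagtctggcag
Pkm M2 exon: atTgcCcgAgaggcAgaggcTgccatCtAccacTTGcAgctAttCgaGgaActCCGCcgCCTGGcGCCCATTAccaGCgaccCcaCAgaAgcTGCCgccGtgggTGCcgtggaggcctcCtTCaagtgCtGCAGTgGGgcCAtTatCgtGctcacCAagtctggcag

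Fgfr2 encodes a fibroblast growth factor receptor whose IIIb exon is used in epithelium and promoted by ESRP proteins, and whose IIIc exon is used in mesenchyme. IIIb made up 47.7 and 41.7% of the pair (44.7 ± 4.19%), with 20.4 and 20.8 TPM of IIIb and 22.4 and 29.0 TPM of IIIc. Most of the IIIb value came from Fgfr2-211 (11.4 and 12.1 TPM), whose exon chain matched its length in the tables only after its outer ends were moved. Without that transcript IIIb made up 25.8%. Fgfr2-217, the most abundant Fgfr2 transcript with 34.8 and 34.9 TPM, holds neither exon. The decay-tagged Fgfr2-226, with 9.46 and 11.3 TPM, holds neither as well, so both are outside the share. The epithelial 63 nt exon of Enah, an actin regulator, was included in 8.43 and 8.53% (1.05 and 1.07 TPM, against 11.4 and 11.5 TPM that skipped it). The 93 nt exon of the kinase gene Slk, an ESRP target in epithelium, was included in 3.72 and 4.24%.

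Both muscle-linked exons were present. The 42 nt exon of the calcium pump gene Atp2a1, which marks the adult form and is an MBNL target, was held by 47.8 and 49.3%, or 48.5 and 35.8 TPM. The TPM without it came from Atp2a1-202, a transcript of 681 nt with 52.9 and 36.8 TPM. The 30 nt exon of the troponin gene Tnnt2, known as its fetal exon and a CELF and MBNL target, was included in 96.0 and 98.0%. The level of Atp2a1 was 102.5 and 72.6 TPM and that of Tnnt2 was 79.8 and 60.1 TPM, higher in replicate 1 as were the muscle markers. The exon shares of both genes differed by less than 2 percentage points between the libraries.

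**Figure D3:**
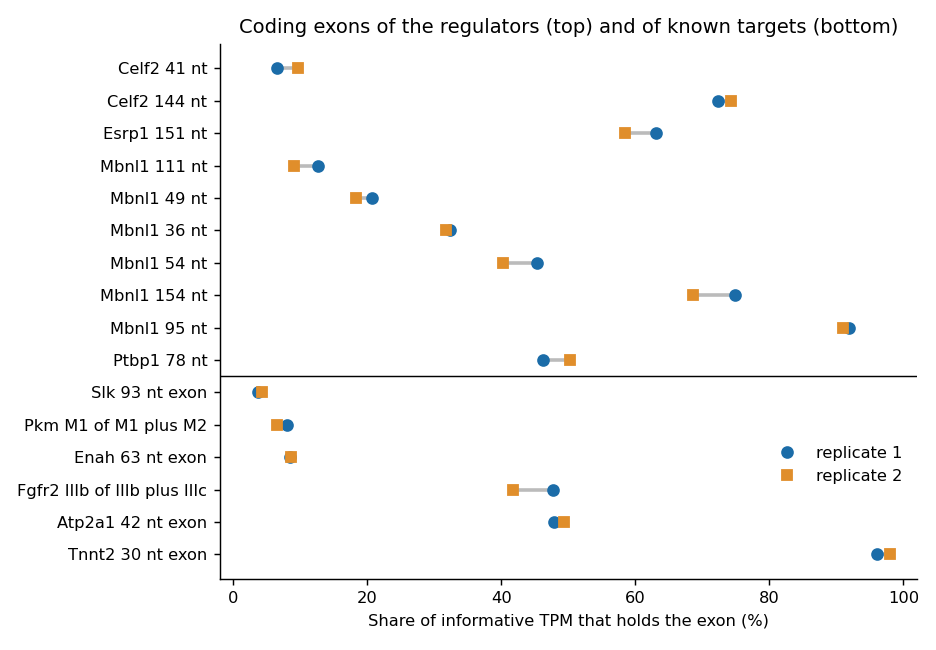
Share of informative TPM that holds each exon (percent) in replicate 1 (blue circles) and replicate 2 (orange squares), for coding exons of the regulators above the line and of target genes below it. The 78 nt exon of Ptbp1 lies at 46.2 and 50.3%, the M1 exon of Pkm at 8.06 and 6.54%, and the 30 nt exon of Tnnt2 at 96.0 and 98.0%.

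Other splicing regulators were listed by family and tissue. Of 48, 40 had 1 TPM or more in both libraries and 7 were below 1 TPM in both. The general factors had higher medians than the 10 regulators: all 12 SR and Tra2 genes (median 217 TPM, range 24.8 to 614 TPM, highest Srsf3 with 610 and 617 TPM) and all 11 hnRNP genes (median 223 TPM, range 92.2 to 1144 TPM, highest Hnrnpk with 1078 and 1209 TPM) were detected. All 10 regulators were below those medians, and the ranges overlap. Neural regulators were low: 3 of 7 were detected, with Nova1 at 1.67 and 2.36 TPM, Elavl4 at 2.10 and 1.81 TPM and Elavl2 at 1.44 and 1.72 TPM. Elavl2 was the lowest of these 3 in both libraries, while Nova1 and Elavl4 changed places. Rbm38, the highest of 3 muscle and heart regulators, had 24.7 and 23.7 TPM. Khdrbs1, the highest of the 4 STAR family genes, had 82.2 and 93.9 TPM. Matr3, the highest of 3 partners of PTB, had 318 and 352 TPM.

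**Figure D4:**
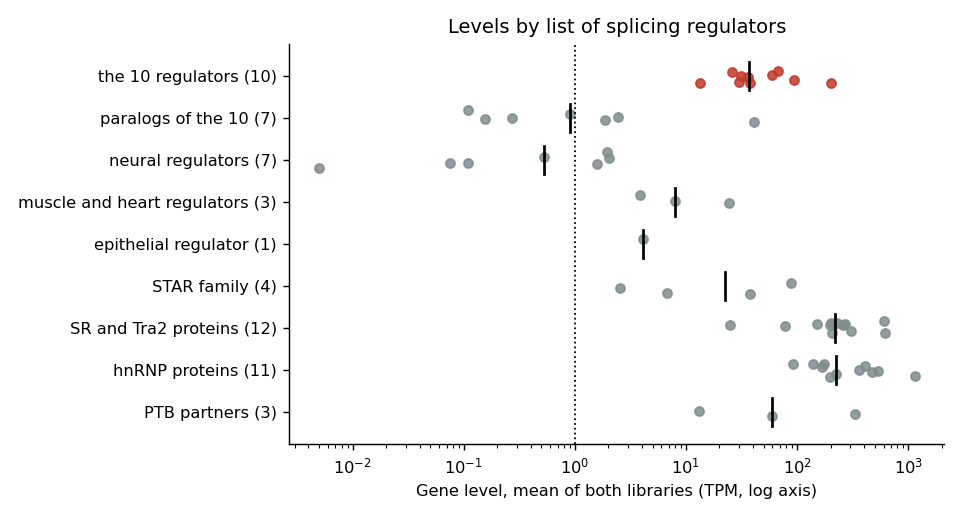
Mean gene level of both libraries in TPM (log axis) for the 10 regulators (red, top) and 8 lists of other splicing regulators (grey), each dot a gene, with the list's median as a black line and 1 TPM as a dotted line. The 10 regulators have a median of 36.7 TPM, SR and Tra2 genes of 217 TPM and neural regulators of 0.53 TPM.

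The libraries were set against each other gene by gene, with counting error alone as the yardstick (two-sided exact binomial test on expected counts scaled by TMM, Benjamini-Hochberg adjusted over 19153 genes). Of the 10 regulators, 4 passed an adjusted p of 0.05, beside 27.5% of all genes tested. All 4 were higher in replicate 1, a direction taken by 14.8% of all genes, while 12.7% were higher in replicate 2. Mbnl3 had 895 counts in replicate 1 and 709 counts in replicate 2, a log2 ratio of 0.32 (adjusted p = 0.000142, exact binomial test with Benjamini-Hochberg adjustment). Esrp1 had 2258 and 1904 counts, a log2 ratio of 0.23 (adjusted p = 7.911e-06, same exact test). Mbnl2 and Mbnl1 had log2 ratios of 0.10 and 0.06 (adjusted p = 0.00123 and 0.047, same exact test). The other 6 had log2 ratios between -0.10 (Ptbp2) and 0.04 (Rbfox2) and did not pass. TPM is scaled otherwise than these counts and gave the other direction for Rbfox2, Ptbp1 and Celf1. Rbfox2 had 35.6 and 36.3 TPM at a log2 ratio of 0.04, and Ptbp1 had 196 and 210 TPM at 0.006. The calls depended on the scaling. With total counts, Mbnl3 and Esrp1 passed as higher in replicate 1 and Ptbp2 as lower (log2 ratio -0.14, adjusted p = 0.00842, same exact test). With spike-in counts, Mbnl3 and Esrp1 passed as higher, and Ptbp2, Celf2 and Ptbp1 as lower (log2 ratios -0.16, -0.09 and -0.05, adjusted p = 0.00114, 0.00653 and 0.0157, same exact test). Mbnl1 and Mbnl2 did not pass under either.

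Once the spread of the typical gene between these libraries was counted as error, none of the 10 passed. With that spread set by the common dispersion, edgeR's exact test called 0 of 10, with 0 of 10 at an unadjusted p under 0.05, beside 0.668% of 16920 genes called. The median coefficient of variation of TPM was 3.25% over the 10 regulators, beside 7.11% over all genes averaging at least 1 TPM. All 10 regulators averaged 13.3 TPM or more, and the spread was not compared at like levels. Of the other 48 regulators, 46 were tested by the exact binomial test, and 7 were higher in replicate 1 and 10 higher in replicate 2. Over all genes tested, 14.8% were higher in replicate 1 and 12.7% in replicate 2, the shares to set beside these counts and the marker counts that follow. For the other regulators, edgeR called 0 of 43 with 0 at an unadjusted p under 0.05. Epithelial markers were higher in replicate 1 for 8 of 10 genes and lower for 1 by the exact binomial test (median log2 ratio 0.18, 0 by edgeR), and muscle markers for 10 of 10 (median 0.57, 3 by edgeR). Red blood cell markers were higher in replicate 1 for 7 of 8 genes (median 0.70, 3 by edgeR), and mesenchyme markers for 2 of 7, with 5 higher in replicate 2 (median -0.15, 0 by edgeR). The part of these cell types in the differences of Esrp1 and the Mbnl genes was not tested.

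**Figure D5:**
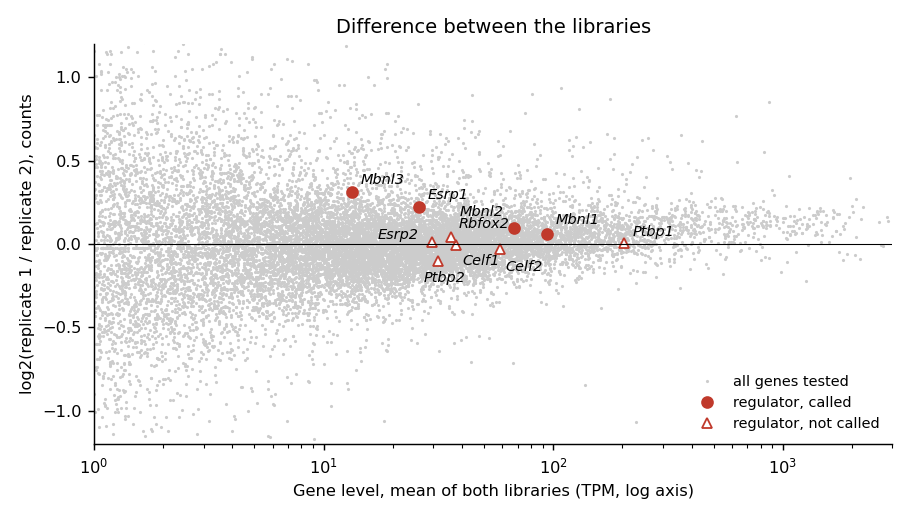
Log2 ratio of replicate 1 over replicate 2 from TMM-scaled expected counts against mean level in TPM (log axis), for genes tested (grey; points outside the axis limits not drawn) and the 10 regulators (red; filled where the exact binomial test passed, open where not). The regulators lie between -0.10 and 0.32, with Mbnl3 and Esrp1 highest.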

How the data were processed

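Total RNA of mouse limb at embryonic day 14.5 was sequenced in 2 libraries of 1 group. The authors deposited, per the file headers, expected counts (estimated reads, not whole), TPM, FPKM (not used), posterior mean TPM, the percent of its gene's TPM held by each transcript, and credibility bounds of TPM, a signal whose interval level the sources do not state. The build is mm10 and the annotation GENCODE M4, per the notes deposited with each sample; no source used here names the aligner or quantifier.

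Identifiers were matched to GENCODE M21 on GRCm38 (42462 of 43346 genes), which gave symbols, transcript types and, through its transcript sequences, the exons printed. Of 113 transcripts of the regulators, 109 had equal lengths in both. Exon inclusion used transcripts whose exon chain added up to the deposited length, as annotated or, for Pkm-202 and Fgfr2-211, after moving outer ends to those of other transcripts of the gene. Exons had 1 informative TPM or more and, in the regulators, a mean of 5 to 95%. The 34 nt exon of Ptbp1, outside that range, was named after its value was seen. Target exons were given at any value. It sums model estimates and counts no junction reads.

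Expected counts were rounded for tests. The exact binomial test took genes with 10 or more summed counts and TMM library sizes from edgeR 4.0.16 (R 4.3.3); edgeR's exact test, DESeq2 1.42.0 size factors, total and spike-in scalings were alternatives. Both tests were run on a simulated pair of libraries that held counting error only, so that check does not cover the spread between libraries. Tables were handled in Python 3.11.15 with pandas 2.3.3 and scipy 1.17.1. The exact binomial test covers counting error only, since it sets 1 library against 1 library without a term for their spread. The deposited intervals describe 1 library each and hold no spread between libraries. No molecular identifiers are recorded.

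Named genes were the 10 regulators, their transcripts of 10% or more and the highest of each non-coding or decay type, paralogs, the highest gene of each list, the highest markers and target genes whose exon could be identified. The Insr and Ctnnd1 exons could not be. The members and lists were chosen with earlier results of these data known.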

Additional observations from a re-analysis of the deposited data

How the results depend on the processing

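Of 294 alternative values, 246 were counted as unchanged in direction, call or size. Levels, ratios and shares from 1 library alone were among these by construction, since with 2 libraries each lies within the SD of their mean. The numbers of regulators called with total counts (3) and spike-in counts (5), beside 4, were also counted as unchanged, although the genes called differed. Expected counts without length correction turned the log2 ratios of Mbnl1 to Mbnl2 (-0.0228) and Esrp1 to Esrp2 (0.14), and moved Mbnl1 to Mbnl3 to 3.03, Celf1 to Celf2 to -0.27 and Ptbp1 to Ptbp2 to 2.37, because counts grow with transcript length. Posterior mean TPM gave 0.51 for Mbnl1 to Mbnl2, 8.28% for the Enah exon and 94.1% for the Tnnt2 exon. Coding and decay-tagged transcripts alone gave 8.77% for Enah. Leaving out Fgfr2-211, an alternative chosen after seeing the data, gave 25.8% for IIIb, and leaving out Pkm-202 in the same way left no M1 value. edgeR's exact test called 0 regulators and 0 other splicing regulators. Differences between the libraries near 0 changed sign: Rbfox2 (-0.0165), Ptbp1 (-0.0544) and Esrp2 (-0.0509) with spike-in scaling, Ptbp1 (-0.0281) and Esrp2 (-0.0245) with total counts, and Celf1 (0.00081) with DESeq2 size factors; the cause was not tested. With spike-in scaling, Mbnl1 (log2 ratio 0.0025) and Mbnl2 (0.03) no longer passed the exact binomial test, and with total counts neither did (0.03 and 0.06), while with no count filter Mbnl1 had an adjusted p of 0.0598 by the same exact test. Ptbp1, Celf2 and Ptbp2 passed with spike-ins, and Ptbp2 with total counts, as lower in replicate 1. Esrp1 and Mbnl3 passed under every scaling of that test. Each library alone kept all paralog ratios on their side of 0. No paired analysis was possible because the libraries form 1 group.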
